A study of Schizosaccharomyces pombe with 12 samples.

Results

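Fission yeast cells lacking the SET domain gene *set3* were compared with wild-type cells after both had been treated with Latrunculin A (LatA). The comparison takes every array whose treatment is LatA, 3 from *set3Δ* cells and 3 from wild-type (WT) cells, which is 6 of the 12 arrays of the series, and asks which transcripts depend on *set3* when the actin cytoskeleton is perturbed. The remaining 6 arrays, 3 of *set3Δ* and 3 of WT cells treated with the solvent DMSO, were used only to see whether a strain difference was also present without the drug. The *set3Δ* strain carried set3::KanMX with *ura4-D18*, *leu1-32* and *ade6-216*, and the WT strain carried the same 3 auxotrophic alleles with *set3* intact. Cultures of both strains were grown in YES, a rich medium, and treated for 3 hours at 30°C. The labels state a LatA dose of 0.5 mM and the methods of the study 0.5 µM. The arrays are labelled as biological replicates, and each genotype is represented by a single strain. The strain list of the study gives h+ for a *set3Δ* strain and h- for a wild type with these markers, without saying which strains were hybridized.

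LatA binds actin monomers and keeps them out of filaments, so that at low doses the actomyosin ring that divides the cell is weakened. Set3p is the scaffold of a nuclear complex, conserved from yeasts to human cells, in which Snt1p, Hif2p and the class I histone deacetylase Hos2p are partners. Complexes of this kind remove acetyl groups from histones in and around transcribed genes. In fission yeast, silent chromatin covers the chromosome ends and the silent mating-type cassettes, and stress turns on a common programme of genes through the mitogen-activated protein kinase Sty1p.

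Values are log2 intensities, normalized by the authors and centred for each probe set on the median of its 12 arrays. They carry no absolute level, so transcripts could not be ranked by abundance and dim probe sets could not be removed. All 4880 *S. pombe* probe sets were tested, and a probe set was counted as differentially expressed where the adjusted p from limma was below 0.05 and the fold change above 1.5. Precision is limited by having 3 arrays per group. The median standard deviation (SD) of a probe set was 0.0708 among the *set3Δ* LatA arrays and 0.0790 among the WT LatA arrays.

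In LatA, 154 probe sets differed between the strains, which is 3.16% of all those tested. The decreases outnumbered the increases: 105 (2.15%) were lower and 49 (1.00%) higher in *set3Δ* cells. Of these, 44 of the lower and 22 of the higher probe sets differed by more than 2-fold, and 14 and 5 by more than 4-fold. All 154 had *set3Δ* arrays that did not overlap the WT arrays, a condition that 40.8% of all probe sets met (23.3% with *set3Δ* above and 17.6% below). A single gene name could be given to 130 of the 154, for 128 genes. At any fold change, 889 probe sets had an adjusted p below 0.05 (18.2%), and at an unadjusted p below 0.05 there were 1727 (35.4%).

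The *set3* probe set read -2.35, -2.46 and -1.97 in the *set3Δ* LatA arrays, against 2.20, 2.20 and 2.31 in the WT LatA arrays. The strains were fully separated at the deleted gene, by -4.49 (standard error 0.13, adjusted p = 9.69e-06, limma), and the genotype labels of all 6 arrays held. The difference was -4.33 with DMSO, so *set3* does not bear on the treatment labels. Of the partners of Set3p, *snt1* was higher, at 0.37, 0.25 and 0.19 in *set3Δ* LatA arrays against -0.11, -0.06 and -0.20 in WT LatA arrays. Its difference of 0.39 had an adjusted p of 0.0148 (limma) but stayed under the fold threshold. The transcript of *hos2* differed by -0.14 (adjusted p = 0.172) and that of *hif2* by -0.03 (adjusted p = 0.791, limma). Among the other histone deacetylase genes, *clr6* and *clr3*, both needed for silencing, differed by -0.02 and -0.11, and *sir2* by -0.18 (adjusted p = 0.0435, limma). None of the 10 genes on either side of *set3* on its chromosome passed the thresholds, with differences between -0.18 and 0.35.

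The largest increases were in genes of metabolism that belong to the core environmental stress response (CESR), the set of genes that fission yeast turns on or off in most stresses. SPAC4H3.08, which encodes a predicted short chain dehydrogenase, read 3.38, 3.23 and 3.29 in *set3Δ* LatA arrays, against -0.17, -0.23 and 0.17 in WT LatA arrays. This was the highest increase among the named genes, 10.4-fold (log2 difference 3.38, standard error 0.11, adjusted p = 1.52e-05, limma). A predicted succinate semialdehyde dehydrogenase gene, *ssd2*, read 2.50, 2.59 and 2.36 in *set3Δ* LatA arrays, against -0.13, -0.03 and 0.03 in WT LatA arrays, 5.76-fold higher. The predicted phosphoketolase gene SPBC24C6.09c was 5.65-fold higher (2.46, 2.52 and 2.41 in *set3Δ*, against 0.05, -0.05 and -0.11 in WT), and the predicted dehydrogenase gene SPACUNK4.17 5.18-fold higher (2.23, 2.36 and 2.35, against -0.17, 0.05 and -0.07). In each of these the *set3Δ* arrays lay close together and more than 2 log2 units above every WT array. Further down, *rds1*, a gene of the stress response, read 0.94, 1.00 and 1.07 in *set3Δ* LatA arrays against -1.06, -1.04 and -0.48 in WT LatA arrays, and the predicted alcohol dehydrogenase gene *adh8* 1.73, 1.72 and 2.24 against 0.00, -0.00 and 0.35. Both were raised in every *set3Δ* array, by 1.86 and 1.78 on the log2 scale. With DMSO the log2 differences were also positive: 2.06 for SPAC4H3.08, 1.44 for *ssd2*, 1.01 for SPBC24C6.09c, 1.34 for SPACUNK4.17, 1.35 for *rds1* and 0.56 for *adh8*. For none of these genes was a change of the difference with the drug shown (lowest adjusted p = 0.12, limma).

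**Figure D1:**
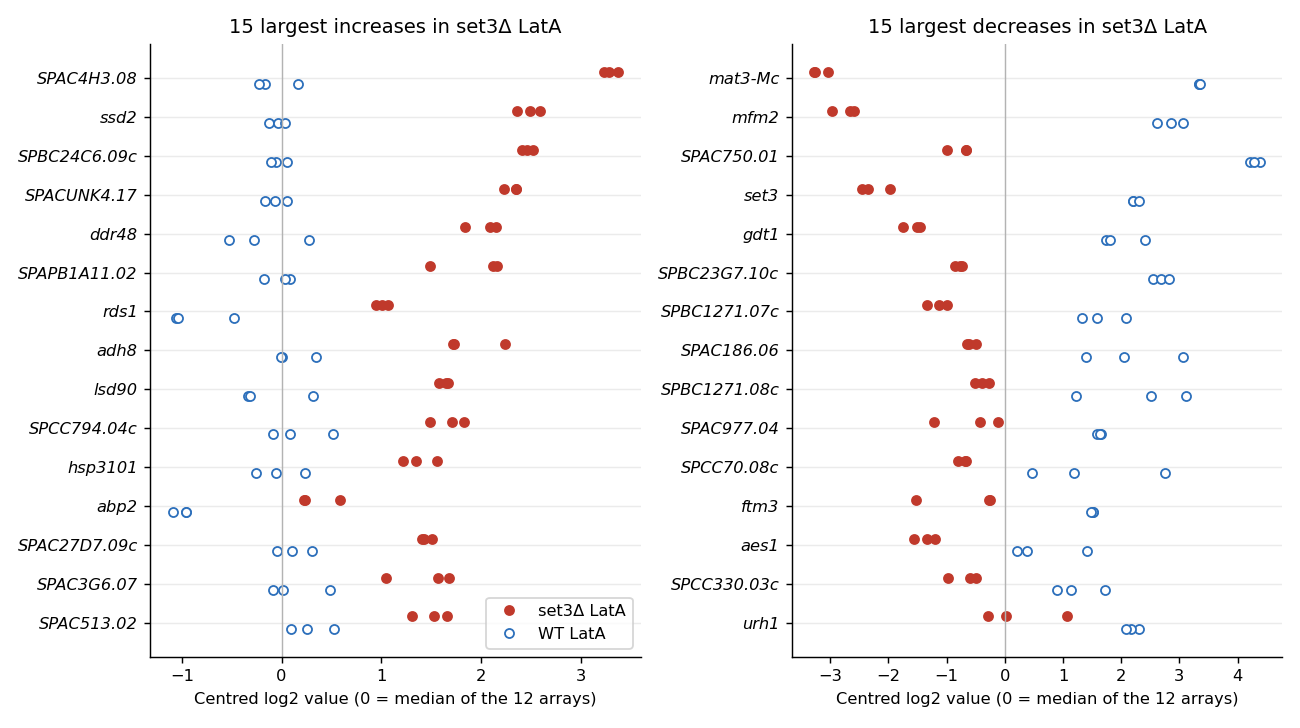
Centred log2 values of the 15 genes with the largest increases (left) and the 15 with the largest decreases (right) in *set3Δ* LatA arrays relative to WT LatA arrays. Each gene has 6 points, filled for the 3 *set3Δ* and open for the 3 WT arrays, and the genes were chosen among those whose strains do not overlap. Spread among WT arrays is widest for SPAC186.06, SPBC1271.08c and SPCC70.08c.

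The other genes with large increases were more varied in function. The serine-rich protein gene *ddr48* was 2.20 higher on the log2 scale, the pseudogene *lsd90* 1.75 higher and SPCC794.04c 2.83-fold higher. A predicted esterase or lipase gene, SPAPB1A11.02, read 2.12, 1.49 and 2.16 in *set3Δ* LatA arrays, against -0.18, 0.08 and 0.04 in WT LatA arrays. It was the only named gene whose increase was also shown to differ from that with DMSO, as described further on. *hsp3101*, a member of the DJ-1/Hsp31 family of small stress proteins, was 1.40 higher, *abp2*, which encodes an ARS-binding protein, 1.35 higher, SPAC27D7.09c 1.33, the dubious gene SPAC3G6.07 1.29 and SPAC513.02, of the phosphoglycerate mutase family, 1.21 higher. The calls of *ddr48*, *lsd90* and SPAC513.02 were lost with all 12 arrays in 1 fit (adjusted p = 0.148, 0.134 and 0.0510, limma). That of SPAC3G6.07 was lost in the same fit and when either WT replicate 2 or *set3Δ* replicate 2 was left out.

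Over all 136 CESR-UP genes, which rise in most stresses, 20 were higher and 5 lower in *set3Δ* LatA arrays. Past the thresholds was thus 18.4% of the list, against 3.16% of all probe sets. The list had a median difference of 0.19, against 0.02 over all probe sets, and 102 of its genes had a positive difference. With DMSO the median strain difference of the list was larger, 0.45, so a positive median was not particular to LatA. The array means of the strains overlapped with DMSO, however. They were 0.15, -0.69 and -0.02 in *set3Δ* DMSO arrays and -0.39, -0.84 and -0.87 in WT DMSO arrays. The 5 decreases of CESR-UP in LatA were in *mag2*, SPBC1348.12, *gor2*, SPBC1271.08c and SPBC23G7.10c. The 104 CESR-DN genes, which fall in most stresses, showed 2 increases (*abp2* and *pfl3*, a cell surface glycoprotein gene) and 2 decreases (*mei2* and *mfm2*). These calls were 3.85% of the list, near the 3.16% of all probe sets. The median of CESR-DN was 0.10 in LatA and -0.32 with DMSO. The CESR-UP mean of an array was 0.465, 0.444 and 0.311 in *set3Δ* LatA and 0.0735, 0.102 and 0.213 in WT LatA, so the strains were apart but *set3Δ* replicate 3 and WT replicate 3 lay nearest to each other. Without *set3Δ* replicate 3 the number of higher CESR-UP genes was 26, and without WT replicate 3 it was 24. With all 12 arrays in 1 fit it was 13.

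Dehydrogenases, taken from the gene descriptions, were a class with calls in both directions. Of 54 probe sets, 8 were higher and 4 lower in *set3Δ* LatA arrays, with a median near 0 (-0.01). This was 22.2% of the class, beside 3.16% of all probe sets. Beside those already given, the higher ones were SPAC186.02c, a predicted 2-hydroxyacid dehydrogenase gene (1.18), *gut2*, the glycerol-3-phosphate dehydrogenase that feeds glycerol into central metabolism (1.15), SPAC22A12.17c (1.01) and SPAPB1A11.03 (0.74). The lower ones were *gor2* (-1.02), *adh4* (-0.91), SPAC5H10.10 (-0.76) and *atd3* (-0.60). All 4 decreases lost their calls without *set3Δ* replicate 2, whereas 8 increases were counted in that setting too.

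In the list of 18 genes of the Sty1p pathway only *pyp1*, the phosphatase that acts on Sty1p, passed (5.56%, beside 3.16% of all probe sets). It read 0.63, 0.67 and 0.52 in *set3Δ* LatA arrays against -0.05, -0.02 and 0.02 in WT LatA arrays (difference 0.62, adjusted p = 0.00283, limma). The *set3Δ* values of *pyp1* were all well above WT. With DMSO its difference was 0.59, and the treatments differed by 0.03 (adjusted p = 0.95, limma). The median of the list was 0.18 in LatA and 0.25 with DMSO. Differences under the fold threshold but with an adjusted p below 0.05 were also seen for *cmk2* (0.50), *wis1*, the kinase above Sty1p (0.43), *mpr1* (0.40) and *sty1* itself (0.19). The transcription factor genes at the end of the pathway, *atf1* and *pcr1*, differed by -0.02 and 0.03. None of 22 genes of oxidative stress defence passed in limma (9 had an unadjusted p below 0.05, as had 35.4% of all probe sets). The catalase gene *ctt1* differed by 0.34.

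Of 18 heat-shock protein genes, 17 had a positive difference and the median was 0.29, but only *ssa1* and *hsp78* passed. This was 11.1% of the list, beside 3.16% of all probe sets. *ssa1*, an Hsp70 chaperone gene, read 1.04, 1.05 and 0.41 in *set3Δ* LatA arrays, against 0.07, -0.13 and -0.16 in WT LatA arrays. *hsp78*, a chaperone gene of mitochondria, read 0.63, 0.52 and 0.17 in *set3Δ* against 0.04, -0.12 and -0.40 in WT. In both genes *set3Δ* replicate 3 was the lowest of its group, and both calls were lost without any one of 4 arrays (*set3Δ* replicates 1 and 2, WT replicates 2 and 3). With DMSO *ssa1* and *hsp78* differed by 0.61 and 0.46. The heat-shock factor gene *hsf1* (0.45, adjusted p = 0.0068) and *hsp16* (0.52, adjusted p = 0.0056, limma) were below the fold threshold. In the list of 10 genes of trehalose and glycerol metabolism, *gut2* and the predicted trehalose-phosphate synthase gene SPAC22F8.05 passed (20.0%, beside 3.16% of all probe sets). SPAC22F8.05 read 0.97, 0.89 and 0.77 in *set3Δ* LatA arrays, against 0.04, -0.10 and -0.04 in WT LatA arrays. Its call was lost with all 12 arrays in 1 fit (adjusted p = 0.250, limma), and its difference was 0.91 with LatA and 1.36 with DMSO. That of *gut2* was 1.15 with LatA and 0.51 with DMSO. The main trehalose-phosphate synthase gene, *tps1*, was 0.42 higher.

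**Figure D2:**
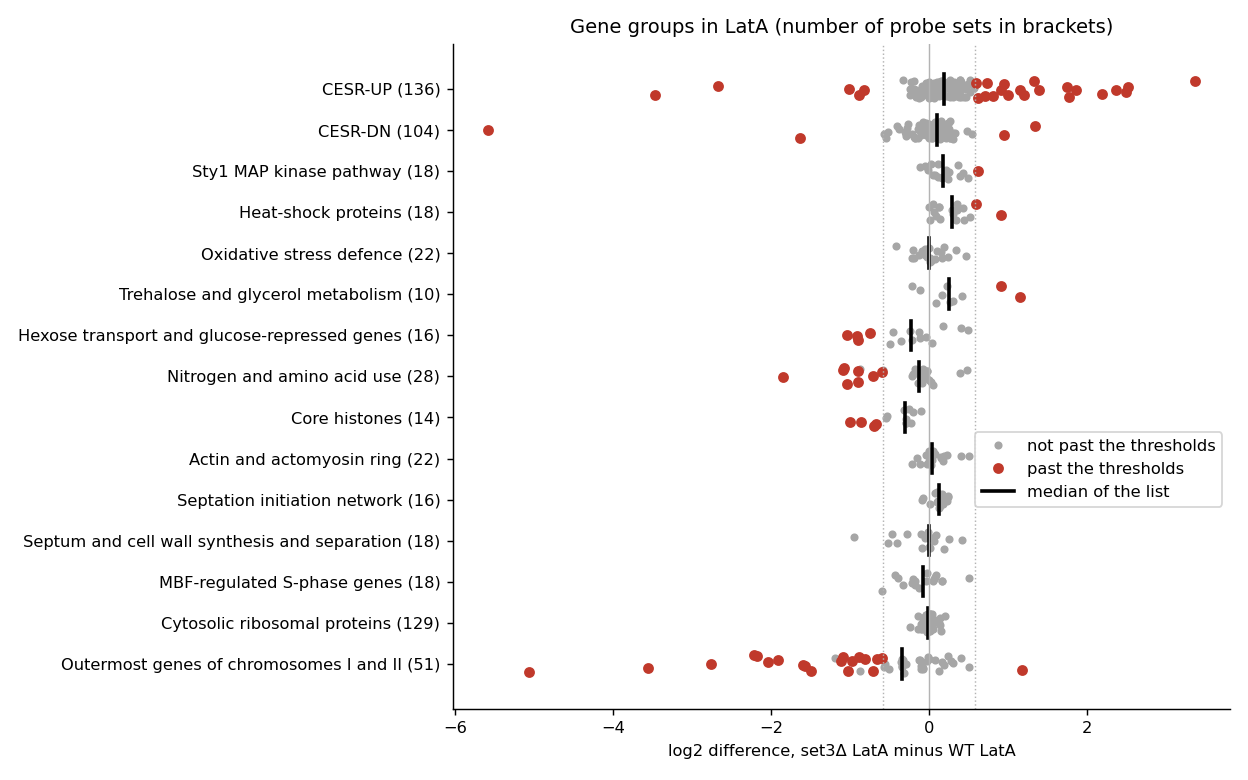
Log2 difference of each probe set, *set3Δ* LatA minus WT LatA, in 15 gene groups. Grey points did not pass the thresholds, red points did, black bars are the medians of the lists and dotted lines mark a 1.5-fold change. The 14 core histone probe sets all lie left of 0, and the lists of actin, septation and S-phase genes hold no red point in this fit.

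Of 16 probe sets for hexose transport and glucose-repressed genes, 4 were lower and none higher in *set3Δ* LatA arrays (median -0.23). Of all probe sets, 2.15% were called lower. In this list 8 lay below WT without overlap and 3 above, beside 17.6% and 23.3% of all probe sets. The high-affinity glucose transporter gene *ght5* read between -1.06 and -0.80 in the 3 *set3Δ* LatA arrays, against 0.03, -0.03 and 0.25 in WT LatA arrays. Its decrease was 2.06-fold (log2 difference -1.04, standard error 0.10, adjusted p = 0.00361, limma). *ght3* (-0.74), *adh4* (-0.91) and *meu17*, a glucoamylase gene (-0.90), also fell, whereas *ght2* was 0.49 higher with an adjusted p of 0.005 (limma) and *fbp1*, the gluconeogenic gene repressed by glucose, differed by -0.49 (adjusted p = 0.085). The calls of *ght3* and *adh4* were marginal: *ght3* was lost without any one of 5 arrays and *adh4* without any one of 4. Their differences stayed negative under every alternative, from -0.95 to -0.61 for *ght3* and from -1.095 to -0.68 for *adh4*. With DMSO the log2 differences were -0.64 for *ght5*, -0.48 for *ght3*, -0.63 for *adh4* and 0.03 for *meu17*. A change of the difference with the drug was shown for none of these genes (lowest adjusted p = 0.18, limma).

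In a list of 28 probe sets for amino acid and nitrogen use, 8 were lower and none higher in *set3Δ* LatA arrays, with a median of -0.12 and 5 positive differences. Of all probe sets, 2.15% were lower and 1.00% higher. Of the 28, 7 are also among the genes that the study itself listed for this contrast, so the count is not independent evidence of its direction. *isp5*, an amino acid permease gene induced during sexual development, read -1.58, -1.19 and 0.04 in *set3Δ* LatA arrays, against 1.47, 1.15 and 0.19 in WT LatA arrays. The groups were apart by a narrow margin only, since *set3Δ* replicate 3 and WT replicate 3 differed little, and the adjusted p was 0.0467 (limma). More even were *dpe2*, a predicted dipeptidase gene, at -0.27, -0.43 and -0.40 in *set3Δ* against 0.70, 0.60 and 0.83 in WT, and SPAC922.03, a predicted aminocyclopropane carboxylate deaminase gene, at -0.07, -0.14 and 0.09 against 1.07, 0.92 and 1.01. *fah1*, a predicted acetamidase gene, was -1.09, the amino acid transporter gene *agp3* -0.90, the aminotransferase gene SPAC1039.07c -0.90, the asparaginase gene SPAC186.03 -0.71 and *sry1* -0.60. The ammonium transporter genes *amt1*, *amt2* and *amt3* did not pass, with differences of -0.20, -0.11 and 0.02, and *put4*, a predicted amino acid transporter gene, differed by -0.87 with overlapping arrays (adjusted p = 0.15, limma).

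Core histone transcripts were lower in *set3Δ* cells. All 14 probe sets had negative differences and in all 14 the *set3Δ* LatA arrays lay below the WT LatA arrays, beside 17.6% of all probe sets that did so. The mean of the list was -0.553, -0.583 and -0.372 in *set3Δ* LatA arrays and -0.0570, -0.0122 and -0.0984 in WT LatA arrays. The 4 that passed belong to 1 gene pair: *hhf1*, a histone H4 gene, read -1.31, -1.30 and -0.84 in *set3Δ* LatA arrays against -0.17, -0.02 and -0.26 in WT on its specific probe set, and *hht1*, the neighbouring histone H3 gene, -0.82, -0.82 and -0.50 against -0.01, -0.02 and -0.00. The decreases were 2.00-fold for *hhf1* (standard error of the log2 difference 0.14, adjusted p = 0.00866, limma) and 1.62-fold for *hht1*. The second probe set of each gene, which can bind near-identical copies, gave -0.86 and -0.67. The copies *hhf3* (-0.53 and -0.55), *hht3* (-0.25), *hht2* (-0.10) and *hhf2* (-0.22) and the H2A and H2B genes *hta1*, *hta2* and *htb1* (-0.29, -0.31 and -0.29) stayed under the fold threshold. Histone genes are nearly identical in their coding parts, so how far each copy contributes is uncertain. With DMSO the list had a median difference of -0.04. *hhf1* and *hht1* differed between the treatments by -0.94 and -0.68, with adjusted p values of 0.082 and 0.052 (limma).

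Genes of S phase, when histone genes are transcribed, were examined beside this decrease. None of 18 S-phase genes regulated by MBF passed in limma (median -0.08). At an unadjusted p below 0.05 there were 2, beside 35.4% of all probe sets. The mean of the list was -0.613, -0.766 and -0.0119 in *set3Δ* LatA arrays and -0.284, -0.369 and -0.480 in WT LatA arrays. The first and second *set3Δ* arrays lay below all WT arrays and *set3Δ* replicate 3 above them, and without that replicate 4 S-phase genes were lower. *cdc22*, which makes deoxyribonucleotides, read -1.77, -1.69 and -0.14 in *set3Δ* LatA arrays against -0.70, -0.69 and -0.94 in WT LatA arrays. *cdc18*, which licenses DNA replication, read -0.94, -1.07 and 0.27 against -0.58, -0.67 and -0.62. Histone values were likewise least reduced in *set3Δ* replicate 3, and the part of the cell cycle in the histone difference was not tested.

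In the fit on the 6 arrays, none of the genes for the machinery that LatA disturbs passed. The lists held 22 genes for actin and the actomyosin ring, 16 of the septation initiation network and 18 of the septum and cell wall. Their medians were 0.05, 0.12 and 0.00, and 8, 4 and 3 of the genes had an unadjusted p below 0.05 in limma. Of all probe sets, 35.4% had such a p. *act1*, the actin gene, differed by -0.02 (adjusted p = 0.783), *for3*, a formin gene, by 0.41 (adjusted p = 0.0266) and *rng3*, a myosin chaperone gene, by 0.51 (adjusted p = 0.0391, limma). *adg1*, a gene of cell separation, read -2.09, -1.89 and -0.34 in *set3Δ* LatA arrays against -0.60, -0.30 and -0.56 in WT LatA arrays, so here too *set3Δ* replicate 3 stood apart from the other *set3Δ* arrays. Without it 4 septum and cell wall genes were lower, and without WT replicate 1 1 actin gene was higher. In the longer list of 332 cytokinesis and cytoskeleton genes of the study, 0.904% passed, against 3.16% of all probe sets. All that passed in this list were lower: *num1* (-0.66), *mug27* (-0.71) and the mating-type gene *mat3-Mc*. The calls of *num1* and *mug27* were lost under 7 and 6 of 13 alternatives. The count of 3 lower genes became 1 without WT replicate 1, WT replicate 2 or *set3Δ* replicate 2, and 9 without *set3Δ* replicate 3. None of the 129 cytosolic ribosomal protein probe sets passed in limma (5 at an unadjusted p below 0.05, beside 35.4% of all probe sets).

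The largest differences were in a pair of mating genes, *mat3-Mc* and *mfm2*. The probe set of *mat3-Mc*, the regulator of M cells, read -3.27, -3.03 and -3.27 in *set3Δ* LatA arrays, against 3.33, 3.34 and 3.35 in WT LatA arrays, a 92.4-fold difference. It is a probe set that can match several genes, so which copy it reports is uncertain. *mfm2*, one of the M-factor pheromone genes, read -2.65, -2.97 and -2.58 in *set3Δ* against 2.62, 3.07 and 2.86 in WT, a 47.9-fold difference. Both were nearly as far apart with DMSO, by -5.55 and -4.62. The other genes of the 11 M-cell probe sets ranged widely: *mam2*, the receptor for P-factor (-1.16), and *mam1*, the M-factor transporter (-0.76), passed, *mam4*, which methylates M-factor, had -0.55 (adjusted p = 0.0049, limma), and the pheromone genes *mfm1* and *mfm3* had -0.24 and 0.16. Of 11 listed P-cell genes 5 were measured, and centred values do not show whether these were expressed. Among them *map2*, *map3* and *sxa1* did not pass (0.07, 0.21 and 0.00). *map1*, which turns on P-cell genes, was lower, at -0.35, -0.53 and -0.92 in *set3Δ* LatA arrays against 0.03, -0.03 and 0.08 in WT LatA arrays. The call of *map1* (-0.62, adjusted p = 0.0291, limma) was lost without any one of 5 arrays. A difference in mating type between the strains and an effect of the deletion cannot be told apart for these genes. In such cultures fewer cells of a type and less RNA per cell cannot be told apart either.

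Of 17 genes of the mating response and entry into meiosis, 2 were lower in *set3Δ* LatA arrays, *mei2* and *spk1*, beside 2.15% of all probe sets. The list had a median of -0.19 and 7 positive differences. *mei2* encodes the RNA-binding protein that starts meiosis. *mei2* read -1.58, -1.55 and -1.36 in *set3Δ* LatA arrays, against 0.07, -0.06 and 0.38 in WT LatA arrays. All 3 *set3Δ* arrays were far below WT (log2 difference -1.63, standard error 0.12, adjusted p = 0.00164, limma). The difference with DMSO was 0.34 and that between the treatments -1.97 (adjusted p = 0.13). *spk1*, the kinase of the pheromone pathway, differed by -0.76 (adjusted p = 0.0456), and its call was lost without any one of 5 arrays. *ste11*, the transcription factor that turns on *mei2*, was -0.27, -0.26 and -0.42 in *set3Δ* against 0.05, -0.00 and 0.20 in WT, a difference of -0.40 (adjusted p = 0.018, limma) under the fold threshold. Of 94 *mug* and *meu* probe sets, named for a rise in meiosis, 5 were lower (*mug14*, *meu17*, *mug133*, *meu7* and *mug27*, from -1.24 to -0.71). Another was higher (*mug73*, 0.82), and the median was 0.03. Past the thresholds was 6.38% of this list, beside 3.16% of all probe sets (2.15% lower and 1.00% higher). Without WT replicate 2, and likewise without *set3Δ* replicate 2, the count of decreases in this list was 1.

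**Figure D3:**
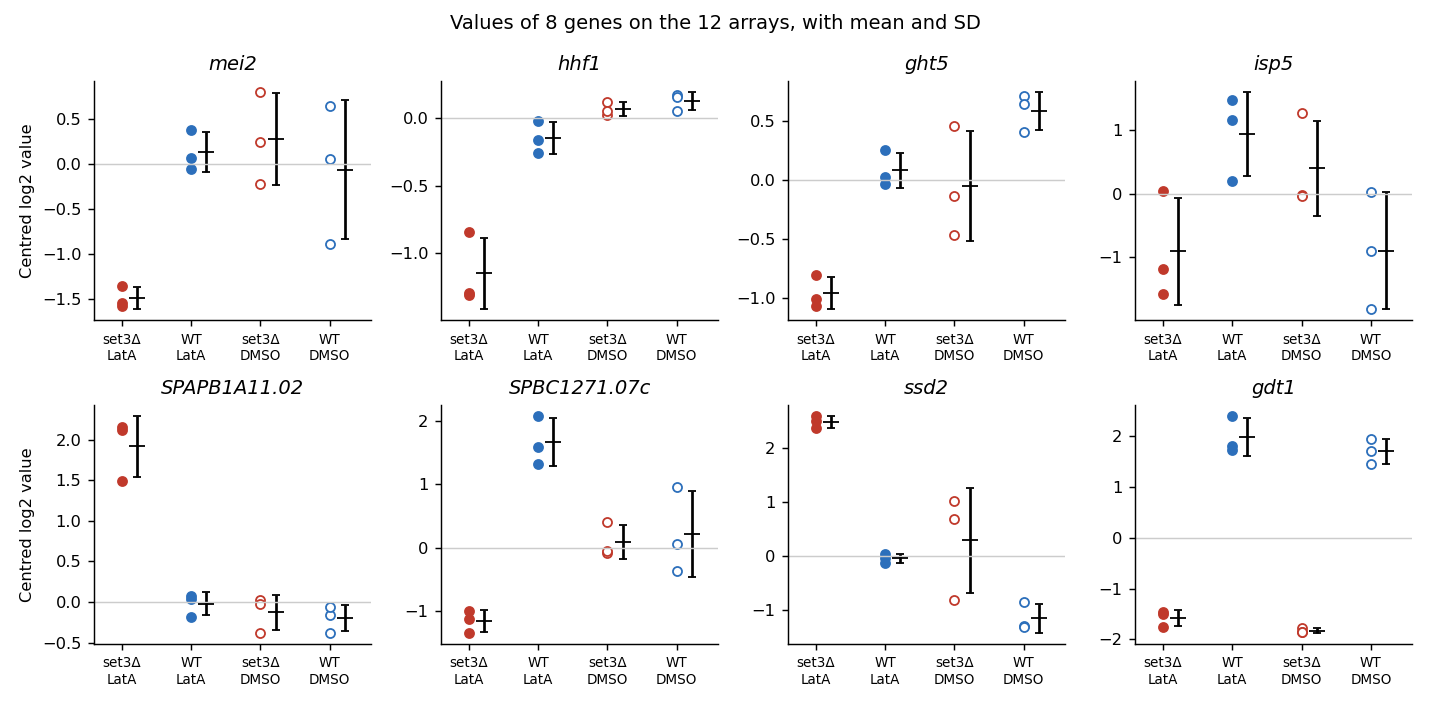
Centred log2 values of 8 genes on all 12 arrays. Points are arrays and bars the mean and SD of the 3 arrays of a group, with *set3Δ* LatA and WT LatA to the left of *set3Δ* DMSO and WT DMSO. The strains are apart in LatA in all 8 genes, while with DMSO they are apart for *gdt1*, overlap for *mei2* and spread widely for *isp5*.

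Genes near chromosome ends were prominent among the decreases. The 30 outermost genes at each end of chromosomes I and II, 120 genes in the RefSeq gene order of assembly ASM294v3, had 51 probe sets on the array for 49 genes. In *set3Δ* LatA arrays 19 of them were lower and 1 higher, so 39.2% passed, against 3.16% of all probe sets, and 28 lay below the WT arrays without overlap, as did 17.6% of all probe sets. The median difference was -0.34 with LatA and -0.10 with DMSO. With the 15 outermost genes in place of 30, 10 of 20 probe sets were lower, and with the 60 outermost 32 of 137 were lower and 3 higher. Genes in these regions have near-identical copies, and of the 19 decreases 9 were counted when probe sets that can match several genes were left out. Of the 51 probe sets, 14 are also among those that the study itself listed for this contrast. The count is therefore not independent evidence of its direction.

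The right end of chromosome I held 7 decreases and 1 increase among 15 probe sets. The eighth gene from that end, the pseudogene SPAC750.01, read -0.67, -0.99 and -0.66 in *set3Δ* LatA arrays, against 4.22, 4.39 and 4.29 in WT LatA arrays, 33.7-fold lower. The groups were far apart, and no other gene of the 4 ends differed as much in LatA. With DMSO SPAC750.01 differed by -2.70, with WT DMSO arrays spread over 3.82, 1.65 and 0.31. A run of 5 neighbours, all past the thresholds, lay further in: SPAC186.06 (-2.76), *gdt1* (-3.55), the pseudogene SPAC186.04c (-1.60), SPAC186.03 (-0.71) and SPAC186.02c, which rose by 1.18. In this run *gdt1* read -1.51, -1.75 and -1.46 in *set3Δ* LatA arrays, against 1.73, 1.80 and 2.41 in WT LatA arrays, and its difference was as large with DMSO (-3.53). SPAC186.06 read -0.61, -0.49 and -0.65 in *set3Δ* against a wide spread of 1.40, 2.05 and 3.06 in WT, and its difference with DMSO was -1.02. Nearer the end, *ftm3* and *ftm4*, of a telomeric duplication, were -2.18 and -1.50, with *set3Δ* replicate 3 far below the other *set3Δ* arrays (*ftm3* at -0.25, -0.27 and -1.52 in *set3Δ* against 1.51, 1.52 and 1.48 in WT).

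At the left end of chromosome I, 5 of 10 probe sets were lower, among them the neighbours SPAC977.03 (-1.91), SPAC977.04 (-2.21) and SPAC977.06, of the DUF999 family (-0.65), and *plb4*, a lysophospholipase gene, at -0.62, -0.64 and -0.70 in *set3Δ* against 0.32, 0.35 and 0.42 in WT. SPAC977.04 read -0.12, -0.43 and -1.21 in *set3Δ* LatA arrays, against 1.65, 1.58 and 1.64 in WT LatA arrays. At the left end of chromosome II, 5 of 15 were lower, led by *aes1* (-1.20, -1.33 and -1.56 in *set3Δ* against 0.21, 0.39 and 1.42 in WT). At its right end 2 of 11 were, SPBCPT2R1.02 (-1.57) and SPBPB2B2.07c (-0.97). The helicase gene *tlh2*, the outermost measured there, differed by -0.13 and -0.08 on its 2 probe sets and did not pass. All 3 calls of the 4 probe sets of the DUF999 family, SPBPB2B2.07c, SPAC977.06 and SPBC1348.01 (-0.59), were decreases. These 3 probe sets can match several genes, so they may not report separate genes. The 1 left without such probe sets differed by -0.07 and did not pass. Without WT replicate 2 or *set3Δ* replicate 3 the family had 2 calls, and with all 12 arrays in 1 fit 1.

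**Figure D4:**
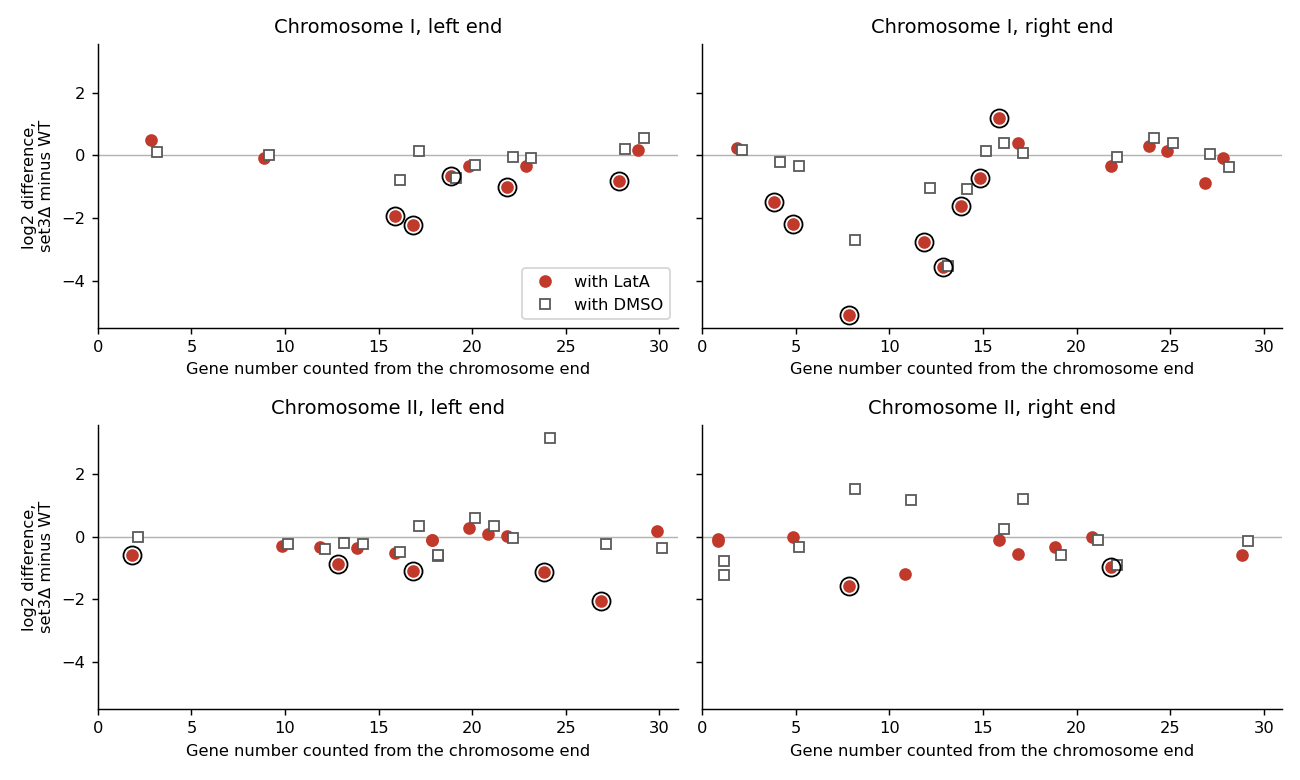
Log2 difference between the strains, *set3Δ* minus WT, for the probe sets of the 30 outermost genes at each end of chromosomes I and II, by gene number from the end. Filled circles are differences with LatA, open squares differences with DMSO, and black rings mark probe sets past the thresholds with LatA. Of the 20 ringed points 19 are below 0, with the lowest at the eighth gene from the right end of chromosome I.

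Genes past the thresholds in some cases stood side by side. Of the 127 called genes placed in gene order, 31 lay in 12 runs, in which each gene was next to another called gene or 1 gene away from it, and 10 of the 12 runs went in 1 direction. The runs at SPAC977.03, SPAC186.02c and *ftm3* are those already described at the ends of chromosome I. Those at SPAC977.03 and *ftm3* consist only of probe sets that can match several genes, so their places are uncertain. How many runs 127 genes would form by their number alone was not tested. SPBC1271.07c, which encodes a predicted N-acetyltransferase, averaged -1.15 ± 0.17 in *set3Δ* LatA arrays (SD, n = 3), against 1.32, 1.59 and 2.08 in WT LatA arrays. Its neighbour SPBC1271.08c read -0.39, -0.51 and -0.28 in *set3Δ*, against 1.23, 2.51 and 3.12 in WT. Both were lower, by 2.82 and 2.68 on the log2 scale, and with DMSO they differed by -0.13 and -0.38. A change of the difference with the drug was not shown for either (adjusted p = 0.056 and 0.107, limma). The call of SPBC1271.08c in LatA was lost without WT replicate 2 and without *set3Δ* replicate 2. Another pair of neighbours was SPBC23G7.10c, a predicted flavin oxidoreductase gene at -0.74, -0.86 and -0.78 in *set3Δ* against 2.54, 2.69 and 2.82 in WT, and the DNA glycosylase gene *mag2* (-0.82). With DMSO these differed as well, by -2.24 and -0.74.

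On chromosome I, SPAC1039.07c, *isp5*, *mmf2* and SPAC922.03 made a run of 4 decreases, close to the pair SPAC1039.01, of the amino acid permease family (-1.06), and SPAC1039.02 (-1.07). Of 13 alternatives, 7 ended the call of *isp5*, 3 that of *mmf2*, 8 that of SPAC1039.01 and 6 that of SPAC1039.02. Leaving out WT replicate 2 or *set3Δ* replicate 2 ended all 4 of these calls, while SPAC1039.07c and SPAC922.03 passed under every alternative. On chromosome III *agp3* and *dpe2* were neighbours. Among the increases, *cnp3*, the gene of the CENP-C protein of the kinetochore, stood beside *abp2*: *cnp3* read 0.81, 0.51 and 0.25 in *set3Δ* LatA arrays, against -0.54, -0.62 and -0.78 in WT LatA arrays, and *abp2* 0.59, 0.23 and 0.22 against -0.96, -1.09 and -0.96. Both were also higher with DMSO, by 1.65 and 0.88. SPAPB1A11.02 and SPAPB1A11.03 were a second pair of increases. The gene *mfm2* had SPAC513.02 on one side, which rose by 1.21, and the dubious gene SPAC513.04 on the other, which fell by 0.61. Whether transcripts of neighbours overlap was not tested.

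In the comparison with DMSO, which shares no array with the one in LatA, 6 probe sets passed (0.123%), all lower in *set3Δ*, and 5 of them were among the 105 decreases in LatA. How far the counts differ depends on the fit, since with all 12 arrays in 1 fit 93 probe sets passed with DMSO and 120 with LatA. For increases limma counted 0 with DMSO, although 8.14% of probe sets had a positive difference at an unadjusted p below 0.05 (22.8% in either direction). Spread between arrays was larger there, with a median SD of 0.114 in *set3Δ* DMSO arrays and 0.106 in WT DMSO arrays. Of the 49 increases in LatA, 43 had a positive difference with DMSO as well, as did 47.3% of all probe sets. Their median was 0.95 in LatA and 0.56 with DMSO. For *ddr48* and *lsd90* the difference with DMSO was 2.65 and 2.17, not smaller than in LatA. Of the 105 decreases 66 had a negative difference with DMSO and 39 a positive one, beside 47.3% positive among all probe sets. The median of the decreases was -0.90 in LatA and -0.12 with DMSO.

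Whether a strain difference itself changed with the drug was tested on all 12 arrays as the difference with LatA minus that with DMSO. In that test 3 probe sets passed (0.0615%), 1 with a positive difference (0.0205%) and 2 with a negative one (0.0410%). SPAPB1A11.02 was 1.94 higher in *set3Δ* with LatA and 0.07 higher with DMSO (difference 1.87, standard error 0.25, adjusted p = 0.0389, limma). SPAC922.03 was 1.04 lower with LatA and 0.11 higher with DMSO (difference -1.15, adjusted p = 0.0308), and a probe set with no gene name was 0.64 lower with LatA and 1.23 higher with DMSO (difference -1.87, adjusted p = 0.0308, limma). Just short of the threshold were SPBC23G7.10c, *hht1* and *mpn1* (each with an adjusted p of 0.052) and SPBC1271.07c (0.056). At an unadjusted p below 0.05, 73 of the 105 decreases and 19 of the 49 increases differed between the treatments, against 20.2% of all probe sets. These counts read the LatA arrays that also chose the 154, so they are a description and no separate test.

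**Figure D5:**
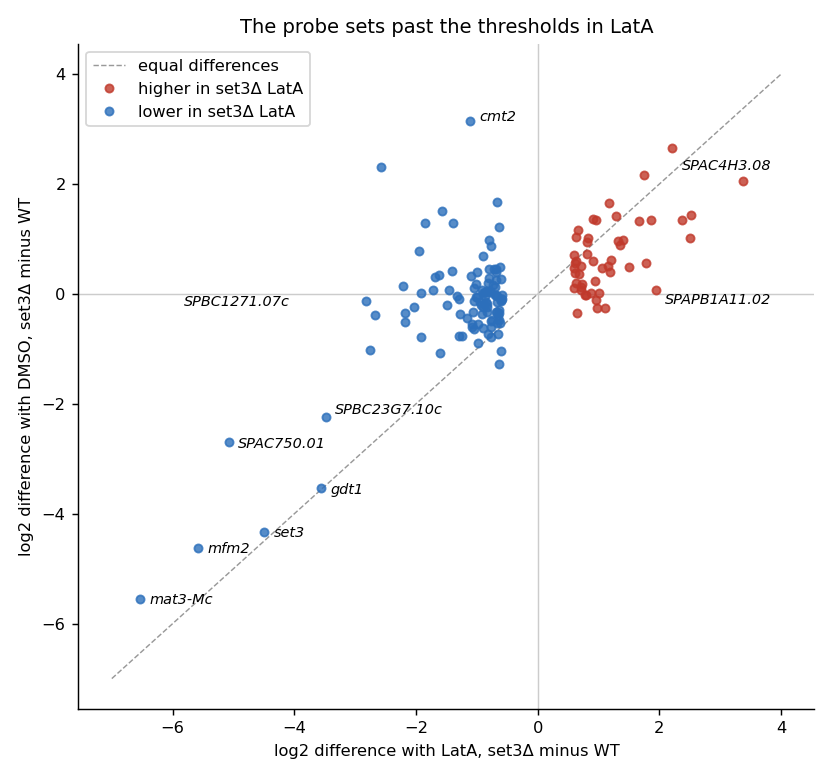
Log2 difference with LatA (horizontal) and with DMSO (vertical), *set3Δ* minus WT in both, for the 154 probe sets past the thresholds in LatA. Points on the dashed line differ equally in both treatments. The lowest points, *mat3-Mc*, *mfm2*, *set3* and *gdt1*, lie near that line, while the decreases had a median of -0.12 on the vertical axis.

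The arrays of a group were not equally far from the other strain. Among the 49 increases, *set3Δ* replicate 3 was the *set3Δ* array nearest to WT for 32, replicate 2 for 11 and replicate 1 for 6. Among the 105 decreases, *set3Δ* replicates 3 and 1 were nearest for 50 and 49, and replicate 2 for 6. The auxotrophic marker genes *ura4*, *leu1* and *ade6*, shared by the strains, differed by -0.03, -0.12 and -0.03, and none of 5 marker genes passed. Just outside the thresholds lay *liz1*, a pantothenate transporter gene, at -0.11, -0.02 and -0.22 in *set3Δ* LatA arrays against 0.38, 0.57 and 1.35 in WT LatA arrays (adjusted p = 0.0503, limma).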

How the data were processed

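RNA was hybridized to Affymetrix Yeast Genome 2.0 arrays. Log2 values were deposited after RMA normalization by the authors, and every probe set has a median of 0 over the 12 arrays (largest departure 7.02e-07). No source used here gives the annotation version. Probe sets were named from the platform table (2865) or from the target descriptions of the study (1052), while 19 match several genes and 944 have no name here.

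Strains were compared with limma 3.58.1 (R 4.3.3, statmod 1.5.0) on the 6 arrays of a treatment, and the treatments on all 12. P-values were adjusted by Benjamini-Hochberg over 4880 probe sets. Genes were named by rule: the 15 largest non-overlapping changes in each direction, the Set3 complex, mating-type and marker genes, up to 5 passing members per list and neighbouring genes. Other genes were chosen after their values were seen. Members and lists were chosen with earlier results of these data known, and some genes whose role did not match a list were taken out of it after values were seen. The CESR, cytokinesis and stress lists are those of the study, and other classes come from gene descriptions. Of the probe sets that the study listed for this contrast, 19 are in CESR-UP, 6 among the dehydrogenases and 3 in the DUF999 family. The shares of these lists past the thresholds are a description and no separate test. The procedure was tested on simulated data. Alternatives were other variance models, array weights, centring, a replicate block, other thresholds, dropping probe sets shared by similar genes and leaving out each array. Replicate numbers do not mark pairs by the labels. Figures were drawn with matplotlib 3.10.9.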

Additional observations from a re-analysis of the deposited data

Results flagged for a closer look

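Each group has 3 arrays, too few for a test of single outlying arrays. For 3 probe sets the strain difference with LatA and that with DMSO differed by a test over all 12 arrays (limma). The esterase or lipase gene SPAPB1A11.02 had a difference between the treatments of 1.87, being higher in *set3Δ* with LatA only. The deaminase gene SPAC922.03 had -1.15, with *set3Δ* LatA arrays near both DMSO groups and WT LatA arrays about 1 log2 unit above them. The unnamed probe set 1771089_at had -1.87 and changed sign: it read -0.75, -0.44 and -0.19 in *set3Δ* LatA arrays against 0.27, 0.05 and 0.22 in WT LatA arrays, and 0.76, 1.16 and 1.06 in *set3Δ* DMSO arrays against -0.46, -0.05 and -0.18 in WT DMSO arrays. None of the 3 passed without WT DMSO replicate 2, *set3Δ* DMSO replicate 3, *set3Δ* LatA replicate 1 or any one of the 3 WT LatA arrays, nor with the own variance of each probe set. All 3 passed without WT DMSO replicate 1, where 260 probe sets did, and without *set3Δ* LatA replicate 3, where 25 did.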

How the results depend on the processing

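No probe set of the 154 changed direction under any alternative fit, and 57 of them (24 higher, 33 lower) stayed past the thresholds under every alternative that keeps the thresholds. The count in LatA was 74 with the own variance of each probe set, 66 at a fold change above 2, 889 with no fold threshold, 87 at an adjusted p below 0.01, and from 93 to 174 when 1 array was left out (93 without *set3Δ* LatA replicate 2, 94 without WT LatA replicate 2). With DMSO it was 93 with all 12 arrays in 1 fit, 14 with array weights, 3 with own variance and from 3 to 6 without 1 array. For the difference between the treatments it was 278 with array weights, 8 with centred arrays, 0 with own variance (986 at an unadjusted p below 0.05 in limma's moderated test), 0 at an adjusted p below 0.01, and from 0 to 260 without 1 array (260 without WT DMSO replicate 1, 25 without *set3Δ* LatA replicate 3). The causes were not tested. Leaving out *set3Δ* LatA replicate 3 also gave 4 lower genes in each of the S-phase and septum lists, against 0. With the replicate number as a block the counts were 153, 6 and 4. Deviations of same-numbered arrays correlated with r of 0.354, 0.022 and 0.0339 in LatA and 0.443, 0.562 and -0.497 with DMSO, so the numbers were not taken as pairs. For the outermost genes, 10 passed with 15 genes per end and 35 with 60. Signal over background is not known for centred values, and 3 arrays per group limit what could be detected.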

Other observations

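A group of decreases outside the lists above was in the salvage of pyrimidines, chosen after the values were seen. *urh1*, which encodes a predicted uridine hydrolase, read -0.28, 0.02 and 1.07 in *set3Δ* LatA arrays, against 2.31, 2.17 and 2.08 in WT LatA arrays, 3.78-fold lower. *cdd1*, the cytidine deaminase gene, read -0.38, -0.17 and 0.17 in *set3Δ* against 1.25, 1.44 and 0.92 in WT. All 7 measured genes of this kind had negative differences, with a median of -0.51, and *urh1* and *cdd1* were the 2 that passed. The call of *urh1* was lost without WT replicate 2 and without *set3Δ* replicate 2. With DMSO *urh1* and *cdd1* differed by 0.02 and -0.03. In the Hsp31 family, also chosen after the values were seen, *hsp3101* (1.40), *hsp3103* (0.97) and *hsp3104* (0.71) were higher in *set3Δ* LatA arrays, and *hsp3102* (0.47) and *sdj1* (0.28) did not pass.

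The gene *cmt2*, a predicted methyltransferase gene, went in opposite directions in the treatments. It read -0.17, -0.30 and -1.20 in *set3Δ* LatA arrays against 0.56, 0.49 and 0.63 in WT LatA arrays, a decrease of 1.11 (adjusted p = 0.0343, limma). With DMSO it read 0.74, -0.03 and 0.60 in *set3Δ* against 0.03, -3.57 and -4.58 in WT, so its positive difference there, 3.14, rests on WT replicates 2 and 3. The difference between the treatments was -4.25 with an adjusted p of 0.15.

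*rec10*, a gene of the meiotic chromosome axis, read 0.38, 0.09 and -0.65 in *set3Δ* LatA arrays against 1.24, 1.45 and 1.34 in WT LatA arrays. Other decreases in LatA included SPBC8E4.03, a predicted agmatinase gene (-1.72), and *mst2*, a histone acetyltransferase gene (-0.69). Other increases included *dis3*, the gene of an exosome nuclease (0.65), *hsr1*, a zinc finger protein gene (1.06), and *nce103*, a carbonic anhydrase gene (0.79).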
